A study of Mus musculus with 59 samples.

Results

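The expression of 10 genes that mark plasma cells was followed through sorted haematopoietic progenitors of the mouse: Jchain, Igha, Ighm, Ighg2b, Xbp1, Mzb1, Sdc1, Prdm1, Derl3 and Tnfrsf17. The genes were taken by symbol from every gene-level table of the study whose columns could be assigned to labelled samples, and all 10 were found among the 51562 genes shared by those tables. The cells were KLS cells (lineage-negative, c-Kit-positive, Sca-1-positive marrow cells, a population rich in stem and multipotent progenitors) and GMPs (granulocyte-macrophage progenitors), both sorted from bone marrow of C57BL/6 mice. Of 59 labelled samples, 36 were used, 18 KLS and 18 GMP libraries, with 3388906 to 29335964 reads assigned to genes in a library, and 23 samples were not analysed here because their columns could not be tied to a label.

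The groups were as follows. In the untimed tables, whose labels give neither a mouse line nor a time, 2 WT libraries (Daxx +/+ Cre +/-) stood beside 2 Daxx-KO libraries (Daxx F/F Cre +/-) for each cell type. The paper also describes KLS cells and GMPs from irradiated transplant recipients, run in duplicate. The sample titles do not say whether the untimed libraries are those, so steady-state marrow cannot be assumed for them. The paper's other KLS and GMP sets with these genotypes were collected at 3 and 24 weeks. It reports Spi1, the gene of Pu.1, as raised in KLS cells only after transplantation. In normalised counts Spi1 was at 1093 to 1155 in untimed Daxx-KO KLS libraries and at 400 to 439 in WT. In KLS cells at 3 weeks it was at 1482 to 1679 in Daxx-KO and at 1669 to 2320 in WT. At 3 weeks after induction, in the Mx1Cre line, there were 3 WT, 3 Daxx-KO and 2 DKO libraries (Pu.1 F/F combined with Daxx F/F, Cre +/-) for each cell type. A separate Mx1Cre line at 3 weeks gave 2 libraries of Pu.1 +/+ Cre +/- and 2 of Pu.1 F/F Cre +/- (Pu.1-KO), and at 24 weeks only 2 WT libraries of each cell type could be assigned. All groups therefore carried Cre, the controls included, and Mx1Cre, which is switched on by an interferon response, acts in many tissues besides the marrow. The study describes the replicates of its genomic assays as biological, and p-values measure the spread between these libraries. KLS and GMP columns at 3 and 24 weeks share a code (Lo22, Lo23 and so on), which was read as the animal.

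Plasma cells are the antibody-secreting end stage of the B lineage, and in adults many of them live for long periods in the bone marrow. Blimp-1, the product of Prdm1, shuts down the B-cell programme, while Xbp1 drives the enlargement of the secretory pathway that antibody output needs. Heavy-chain genes are expressed one class at a time, starting with Ighm and, after class switching, with Igha or a member of the Ighg group, and the joining chain made from Jchain links IgM and IgA into polymers. KLS cells and GMPs are not antibody-secreting cells, and the lineage antibodies used in the sort included B220 but, by the methods of the study, not CD138 (the product of Sdc1).

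In coordinates of mm10 (GRCm38, GENCODE M21 gene models), the heavy-chain constant genes lie together on the minus strand of chromosome 12, with Igha at chr12:113254830-113260236, Ighg2b at chr12:113302965-113307933 and Ighm at chr12:113418558-113422730. Jchain, at chr5:88519809-88527891 on the minus strand, is a protein-coding gene whose model overlapped no other. RefSeq promoters (GRCm38.p6, 250 bases before to 50 bases after the start) were at hand for Jchain, Xbp1, Sdc1, Prdm1, Derl3 and Tnfrsf17. Those of Derl3 and Jchain are shown, because both genes were high in the same 6 KLS libraries at 3 weeks, although not alike over all libraries, while their promoters differ in the letters read by the unfolded protein response. Capitals mark CCAAT and CCACG on either strand (ATTGG and CGTGG are their reverse complements), the parts of the endoplasmic reticulum stress element bound by Xbp1 and its relatives together with NF-Y:
Derl3, chr10:75893148-75893447, plus strand: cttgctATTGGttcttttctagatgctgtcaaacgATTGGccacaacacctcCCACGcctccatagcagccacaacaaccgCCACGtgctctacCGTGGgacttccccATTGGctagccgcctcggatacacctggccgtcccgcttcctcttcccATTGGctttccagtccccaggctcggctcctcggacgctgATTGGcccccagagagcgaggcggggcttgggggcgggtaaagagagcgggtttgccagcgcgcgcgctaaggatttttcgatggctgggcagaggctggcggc
Jchain, chr5:88527848-88528147, minus strand: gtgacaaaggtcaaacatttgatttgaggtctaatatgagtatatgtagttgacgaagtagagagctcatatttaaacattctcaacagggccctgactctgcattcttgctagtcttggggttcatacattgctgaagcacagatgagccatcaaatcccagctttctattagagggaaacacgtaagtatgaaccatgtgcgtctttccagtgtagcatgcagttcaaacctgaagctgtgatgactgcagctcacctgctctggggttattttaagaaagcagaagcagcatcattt
The complete element, CCAAT and CCACG with 9 bases of any kind between them, was present on either strand in 35 of 27025 RefSeq promoters of this length (0.13%), and Derl3 was the only one of the 6 members to hold it, from base -156 to base -138. Its parts are common, since CCAAT was present in 37.9% and CCACG in 32.7% of all promoters, and each was found in Derl3, Prdm1 and Sdc1 among the 6. Neither the octamer ATGCAAAT (1.75% of promoters) nor the Pu.1 site GAGGAAGT (3.28%) was in any of the 6 windows, which says nothing of the factors that bind there.

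Jchain was more abundant in KLS than in GMP libraries. Scaled to RPM, which sets the gene reads of each library to the same total, because the tables had been normalised separately, Jchain stood at a median of 181 in the 18 KLS libraries (lowest 0.946, highest 909) and at 0.492 in the 18 GMP libraries (lowest 0, highest 108). The KLS libraries below 40 were both untimed Daxx-KO libraries (0.946 and 2.69) and, at 3 weeks, WT libraries 1 and 2 (34.1 and 8.24). Among GMPs, 2 libraries held no Jchain read, which at their depth allows up to 3 reads, and the 3 highest came from DKO animals Lo54 (108) and Lo56 (19.2) and from WT animal Lo80 (17.8). Which cells the reads came from was not tested, and in bulk libraries fewer cells of a type and less RNA per cell cannot be told apart.

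**Figure D1:**
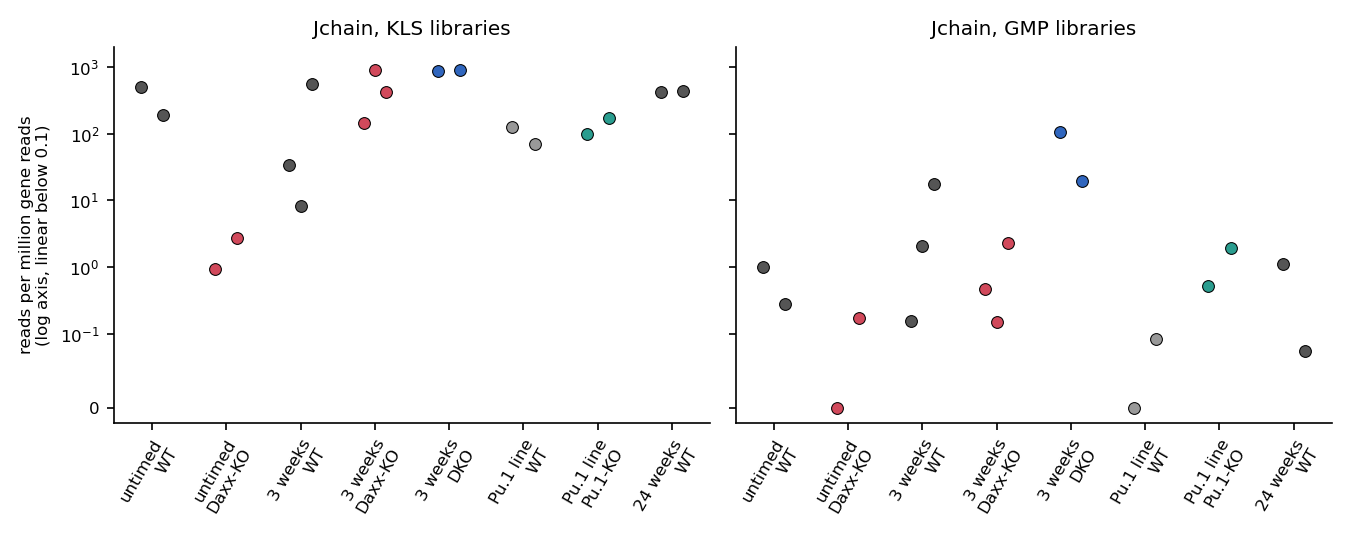
Jchain in RPM (log axis, linear below 0.1) in each of the 36 libraries, with 1 point for a library, KLS on the left and GMP on the right. The untimed Daxx-KO KLS libraries sit at 0.946 and 2.69, below their WT libraries at 503 and 190, whereas at 3 weeks the WT libraries spread from 8.24 to 566.

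The members together took 0.0175% to 1.55% of all gene reads in KLS libraries and 0.0212% to 0.0723% in GMP libraries. Most of these reads were Ighm, and without it the largest share was 0.284%, in the KLS library of DKO animal Lo54. Per length, in RPM per kilobase of exon, Ighm had the highest median among KLS libraries (1034), followed by Jchain (71.7), Igha (42.5), Xbp1 (31.4) and Ighg2b (23.1), and Derl3 had the lowest (1.85). The ranges of these 5 overlapped widely, from 0.376 to 361 for Jchain and from 0 to 571 for Igha. In GMPs the order of levels per length was Ighm (62.99), Xbp1 (46.9) and Sdc1 (0.611), with Jchain at 0.196 and Igha at 0.147.

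In untimed KLS cells the antibody genes were low in the Daxx-KO libraries. Normalised counts of Ighm, the first heavy chain made by B cells, were 16203 and 9907 in WT and 549 and 839 in Daxx-KO. Jchain stood at 3336 and 1290 in WT against 6.56 and 18.5 in Daxx-KO, Igha at 2945 and 350 against 2.19 and 0, and Ighg2b at 967 and 360 against 13.1 and 0. For each of the 4 genes both WT libraries lay above both Daxx-KO libraries. By limma on log2(normalised count + 1), Ighm was lower by a log2 fold change of -4.22 (SE 0.25, adjusted p = 1.31e-05) and Jchain by -7.42 (SE 0.51, adjusted p = 2.65e-05). Igha, with 1915 reads in the 2 WT libraries and 2 reads in the 2 Daxx-KO libraries, was 3473 times as abundant in WT, with a 95% interval from exact counting error of 960 to 28697.

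The regulators moved in opposite directions in the same untimed KLS libraries. Prdm1, the repressor that fixes plasma cell fate, was at 74.0 and 53.4 in WT and at 9.85 and 9.09 in Daxx-KO (log2 fold change -2.61, SE 0.46, adjusted p = 0.00432). It reached the mean normalised count of 10 needed for testing only through the WT libraries, so its p-value is a description. Xbp1, the activator of secretory genes, was at 432 and 353 in WT and at 614 and 742 in Daxx-KO (log2 fold change 0.79, SE 0.15, adjusted p = 0.00678). Xbp1 was thus the only member called higher in Daxx-KO, and with no filter on low values limma gave it an adjusted p of 0.0508.

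The surface and secretory members followed the antibody genes, with few reads behind them. Sdc1, which encodes CD138, had 67 and 44 reads in WT and 0 and 3 reads in Daxx-KO (normalised counts 115 and 75.8 against 0 and 0.909), a ratio of 134 with an interval of 44.7 to 661. Mzb1, an endoplasmic reticulum protein that helps to assemble IgM, had 22 and 23 reads in WT and 1 read in each Daxx-KO library, a ratio of 81.6 with an interval of 21.3 to 694. The gene model of Mzb1 overlaps that of Spata24 on the same strand, so reads in the overlap could have been counted to either gene or to none. Derl3, which takes part in clearing misfolded proteins from the endoplasmic reticulum, was at 29.2 and 15.5 in WT and at 12.0 and 7.58 in Daxx-KO, a difference that did not pass the test (log2 fold change -1.08, SE 0.64, adjusted p = 0.269). Tnfrsf17, the receptor BCMA that sustains long-lived plasma cells, had 4 to 8 reads in every library and did not reach the filter of a mean normalised count of 10.

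Of the 9 members tested in untimed KLS cells, 7 were called lower in Daxx-KO, where 12.5% of 13508 genes were called lower, and 1 was called higher, where 10.6% were. Both Daxx-KO libraries lay below both WT libraries for 8 of the 9 tested members and above them for 1, as they did for 29.8% and 32.9% of all genes tested. The median log2 fold change was -4.59 over the 9 members and 0.0322 over all genes. Igha, Ighg2b, Mzb1, Sdc1, Prdm1 and Derl3 reached the mean of 10 only through the WT libraries, so their tests, these counts and the median are a description. With no filter 7 of the 10 members were called, all lower, beside 1751 of 25008 genes called in either direction. The count of calls rested on both Daxx-KO libraries. It fell when either was left out, for the members and over all genes, while every tested member kept its direction. Other cell markers moved with these genes. The summed normalised count of the pro-B and pre-B cell list (9 genes, led by Dntt) was 1756 to 3962 in WT and 18.2 to 38.3 in Daxx-KO, that of the mature B cell list 574 to 652 and 241 to 283, and that of the GMP identity list 759.6 to 1352 and 11613 to 15160. The KLS and stem cell identity list was at 27433 to 28615 in WT and 5676 to 6108 in Daxx-KO. Its sum was led by Mecom in WT. Of its 8 genes, 7 were called lower, but Ly6a was called higher (135.9 and 113.7 in WT, 473.7 and 485.2 in Daxx-KO). Of 9 tested mature B cell genes, 6 were called lower, but Cd79b was called higher (61.9 and 49.95 in WT, 119.2 and 149.7 in Daxx-KO). Late neutrophil genes stood apart in WT library 1 (5670 against 37.9 in WT library 2). The part of these shifts in the values of the plasma cell genes was not tested.

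In untimed GMPs only Ighm and Xbp1 had a mean normalised count of 10 or more. Ighm was at 626 and 721 in WT and at 951 and 1204 in Daxx-KO, and Xbp1 at 937 and 967 in WT and at 1330 and 1287 in Daxx-KO. Both were called higher in Daxx-KO, by log2 fold changes of 0.67 (SE 0.13, adjusted p = 0.00457) and 0.46 (SE 0.091, adjusted p = 0.00462), in a comparison in which 16.6% of genes were called higher. The call for Ighm was lost without WT replicate 1 (adjusted p = 0.0536). Igha, Ighg2b and Jchain had 0 to 16 reads in any of these 4 libraries.

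At 3 weeks the KLS libraries held high values of plasma cell genes in all but 2 libraries, both WT. Jchain was at 452 in WT library 1, at 109 in WT library 2 and at 7513 in the WT library of animal Lo80, which carries no replicate number. In Daxx-KO it was at 1884, 12513 and 5481, and in DKO at 13327 and 12403. Only WT libraries 1 and 2 were low, and the Lo80 library lay inside the range of the Daxx-KO libraries. The same 6 libraries exceeded the same 2 for every member. Group means with SD for Jchain were 2691 ± 4179 (n = 3) in WT, 6626 ± 5406 (n = 3) in Daxx-KO and 12865 ± 654 (n = 2) in DKO, so that WT and Daxx-KO, which are neighbours in this order, differed by less than their spread.

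**Figure D2:**
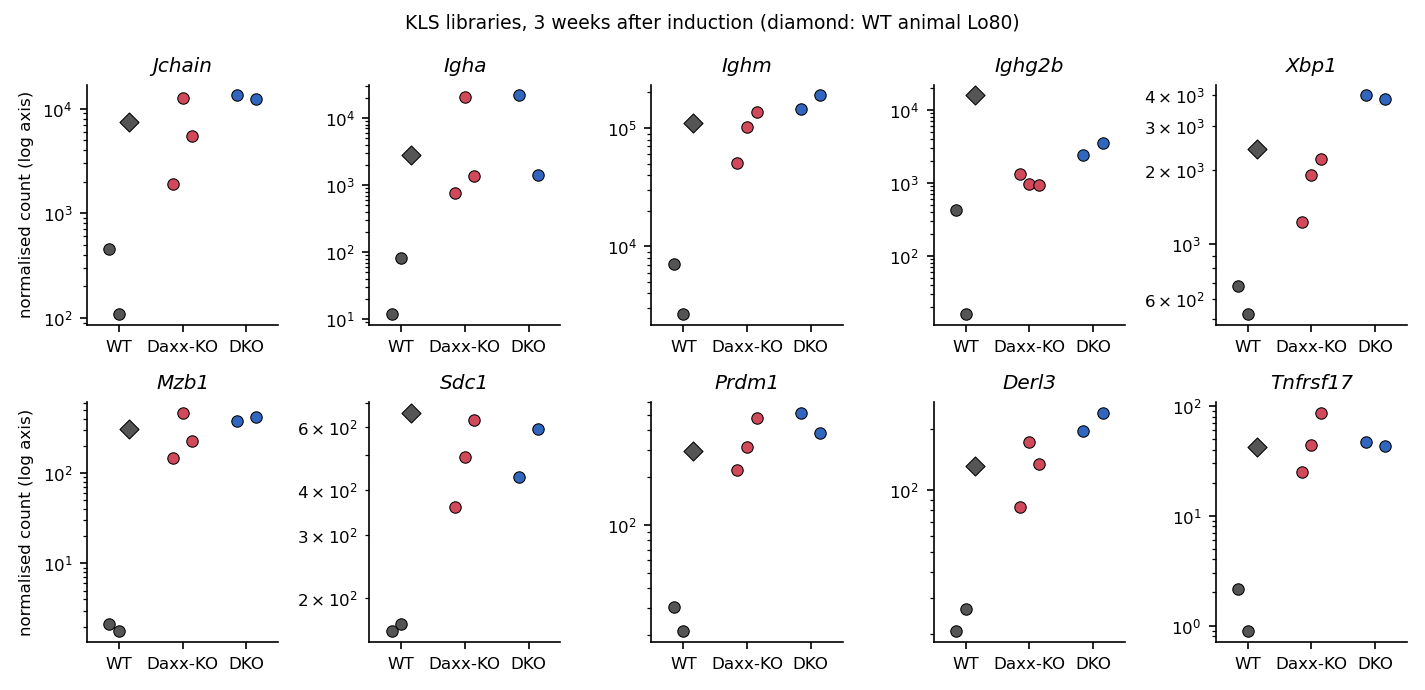
Normalised counts (log axes, which differ between panels) of the 10 plasma cell genes in the 8 KLS libraries at 3 weeks, with 1 point for a library and a diamond for the WT animal Lo80. In every panel WT libraries 1 and 2 lie lowest, as for Mzb1 at 2.16 and 1.77 against 310 for the diamond. The diamond lies within the range of the Daxx-KO and DKO libraries except for Ighg2b and Sdc1, where it lies above all of them.

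The heavy chains spanned a wide range at 3 weeks. Ighm was at 7163, 2669 and 110066 in the WT libraries 1, 2 and Lo80, at 51095, 102386 and 137691 in Daxx-KO and at 146447 and 188850 in DKO. Igha was at 11.9, 83.0 and 2864 in WT, at 764, 20982 and 1382 in Daxx-KO and at 21775 and 1406 in DKO, so that a single library in each mutant group stood far above the rest of its group. Ighg2b was highest in the Lo80 library (15904), followed by the DKO libraries (2413 and 3503), the Daxx-KO libraries (1316, 973 and 926) and WT libraries 1 and 2 (433 and 15.9). The heavy-chain genes therefore shared the 2 low libraries but not the order of the high ones.

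The regulators showed the same 2 low libraries with smaller steps. Prdm1 was at 30.3, 21.2 and 293 in WT, at 222, 310 and 477 in Daxx-KO and at 515 and 384 in DKO. Xbp1 was at 677, 522 and 2433 in WT, at 1233, 1899 and 2205 in Daxx-KO and at 3989 and 3855 in DKO, the DKO libraries being above all others. The step from the lowest to the highest library was larger, as a ratio, for Prdm1 than for Xbp1.

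Among the secretory and surface members, Mzb1 was close to absent in WT libraries 1 and 2, with 2 reads in each (2.16 and 1.77), and stood at 310 in Lo80, at 148, 465 and 224 in Daxx-KO and at 379 and 412 in DKO. Derl3 was at 20.53, 26.5 and 131 in WT, at 82.6, 171 and 135 in Daxx-KO and at 195.5 and 239 in DKO. Sdc1 had the narrowest range, with 161, 169 and 656 in WT, 358, 494 and 626 in Daxx-KO and 434 and 590 in DKO. Tnfrsf17 was at 2.16, 0.883 and 42.02 in WT, at 24.9, 43.96 and 86.8 in Daxx-KO and at 46.9 and 43.4 in DKO.

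Against all 3 WT libraries, 0 of the 10 members were called in Daxx-KO KLS cells at 3 weeks by limma, in a comparison in which 0.257% of 15200 genes were called. At an unadjusted p under 0.05 there were 7, all higher in Daxx-KO, as were 5.94% of genes. With edgeR and DESeq2 on the recovered reads, 0 were called and 0 were below that level. DESeq2 gave no p-value for Ighg2b, so its 0 is not the outcome of a test of every member. The largest log2 fold changes were those of Igha (4.27, SE 1.88, adjusted p = 0.421) and Mzb1 (4.16, SE 1.48, adjusted p = 0.358), and the median was 2.63 over the members and -0.000521 over all genes. With the Lo80 library left out, 8 of the 10 members were called higher, Mzb1 by 6.40 (adjusted p = 0.000665), Prdm1 by 3.61 (adjusted p = 0.00192) and Ighm by 4.36 (adjusted p = 0.00342), and 137 genes in all. The result thus turned on 1 WT library, and since that library stands apart in the very genes being compared, its removal is given as a measure of dependence and not as a second test.

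In DKO KLS cells 3 of the 10 members were called higher than WT, where 9.24% of genes were: Xbp1 by 2.04 (SE 0.53, adjusted p = 0.0278), Derl3 by 2.34 (SE 0.69, adjusted p = 0.0423) and Prdm1 by 2.92 (SE 0.89, adjusted p = 0.0487). For 7 members every DKO library lay above every WT library, as it did for 26.0% of all genes tested. Jchain (4.16, adjusted p = 0.0675), Mzb1 (4.83, adjusted p = 0.0714) and Ighm (3.70, adjusted p = 0.0590) were among these 7 and missed the threshold. The median log2 fold change was 2.89 over the members. The 3 calls were lost, to 0, without WT replicate 1 or WT replicate 2, where 1306 and 1289 genes were called. They also failed to hold without either DKO library, which leaves 1 library in that group. Without Lo80 all 10 members were called, beside 2975 of 15168 genes. By edgeR 0 were called, and by DESeq2, which gave no p-value for Ighg2b, 1 was. Between DKO and Daxx-KO, a comparison that shares the DKO libraries with the preceding one, 0 of the 10 were called by limma, edgeR or DESeq2 (15.4% of genes were, by limma), and 0 had an unadjusted p under 0.05 by any of the 3. The DKO libraries exceeded all 3 Daxx-KO libraries for Ighm, Ighg2b, Xbp1 and Derl3, as they did for 22.3% of genes.

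Daxx itself was at 72.2 to 102 in Daxx-KO and 78.1 to 93.9 in DKO KLS libraries against 423 to 505 in WT, Lo80 included, so that the targeted gene went with the labels in each library. Spi1, the gene of Pu.1, was at 2993 to 3330 in the KLS libraries labelled DKO and at 1669 to 2320 in WT, so that its level was not lower in the former. The Lo80 library differed by more than 4-fold from WT libraries 1 and 2 in 5.18% and 5.12% of 15200 genes. Those 2 libraries differed from each other in 3.599%, pairs of Daxx-KO libraries in 3.01% to 4.99% and the DKO libraries in 5.20%. Daxx-KO libraries differed from WT libraries 1 and 2 in 3.84% to 7.06% of genes, and from Lo80 in 4.59% to 5.82%. By these counts Lo80 was no closer to WT libraries 1 and 2 than Daxx-KO libraries 1 and 3 were. No 2 libraries of a table held the same counts.

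Genes of other cell types were read in the same 8 libraries. Over 20 further antibody-secreting cell genes, the mean of the centred log2 values was -0.87 and -1.28 in WT libraries 1 and 2 and -0.19 to 0.67 in the other 6. The following genes of that list were chosen after their values were seen. Irf4 was at 47.6 and 34.4 in WT libraries 1 and 2 and at 444 to 1200 in the other 6, Pou2af1 at 33.5 and 43.3 against 406 to 1984, and Slamf7 at 36.7 and 8.83 against 238 to 558. Others went differently: Sel1l3 was at 76.7 and 59.1 in WT libraries 1 and 2 and at 25.01 in Lo80 and 12.5 and 29.9 in DKO, and Fkbp11 in WT library 1 (85.4) was above all 3 Daxx-KO libraries (39.6 to 81.6). The pro-B and pre-B cell list was highest in the Daxx-KO libraries (8138 to 46615) and lower in WT (1739 to 2925) and DKO (1418 to 1813), a sum led by Dntt in WT. Single genes of that list differed from the sum, with Ebf1 at 970 in DKO library 1 against 218 and 519 in WT libraries 1 and 2, and Il7r at 374 against 84.3 and 81.2. The mature B cell list summed to 821, 624 and 1159 in the WT libraries 1, 2 and Lo80, to 1411 to 8431 in Daxx-KO and to 1052 to 2214 in DKO, so that WT libraries 1 and 2 were lowest for it too. Pax5, which Blimp-1 represses in plasma cells, was at 29.2, 72.4 and 30.01 in the WT libraries 1, 2 and Lo80, at 384, 4998 and 80.6 in Daxx-KO and at 356 and 43.4 in DKO. Plasmacytoid dendritic cells, which can also carry immunoglobulin and Xbp1 transcripts, had a summed marker count of 12865 to 13742 in DKO, 14606 to 17264 in WT and 16557 to 19454 in Daxx-KO, most of it from Runx2 and Tcf4, with Cox6a2 listed at 0 in all 8 libraries and Siglech at 0 to 50.2. Ccr9 of the same list was at 13.0, 25.6 and 6.00 in WT, at 246, 264 and 189 in Daxx-KO and at 41.2 and 112 in DKO, and was called higher by limma in both (adjusted p = 0.0209 and 0.0287).

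Myeloid genes moved with the plasma cell genes in part. The late neutrophil list was at 133101 to 164408 in DKO, at 26406 in Lo80 and at 495 to 5823 in the other 5 libraries, and the GMP identity list at 105049 to 108973 in DKO, 43006 in Lo80 and 3701 to 12864 in the others. Macrophage genes summed to 7005 to 8446 in DKO, to 2564 in Lo80, to 1008 and 323 in WT libraries 1 and 2 and to 332 to 479 in Daxx-KO. That sum did not stand for the list, whose median log2 fold change in DKO against WT was -1.96, with only Vcam1 called higher. The mean of its centred log2 values was -0.67 and 0.092 in DKO, 0.88 and -0.57 in WT libraries 1 and 2 and 2.14 in Lo80. Daxx-KO libraries 1 and 3, with Jchain at 1884 and 5481, had late neutrophil sums of 1282 and 869, below that of WT library 1 at 2250. The part of these other cells in the difference between libraries was not tested.

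**Figure D3:**
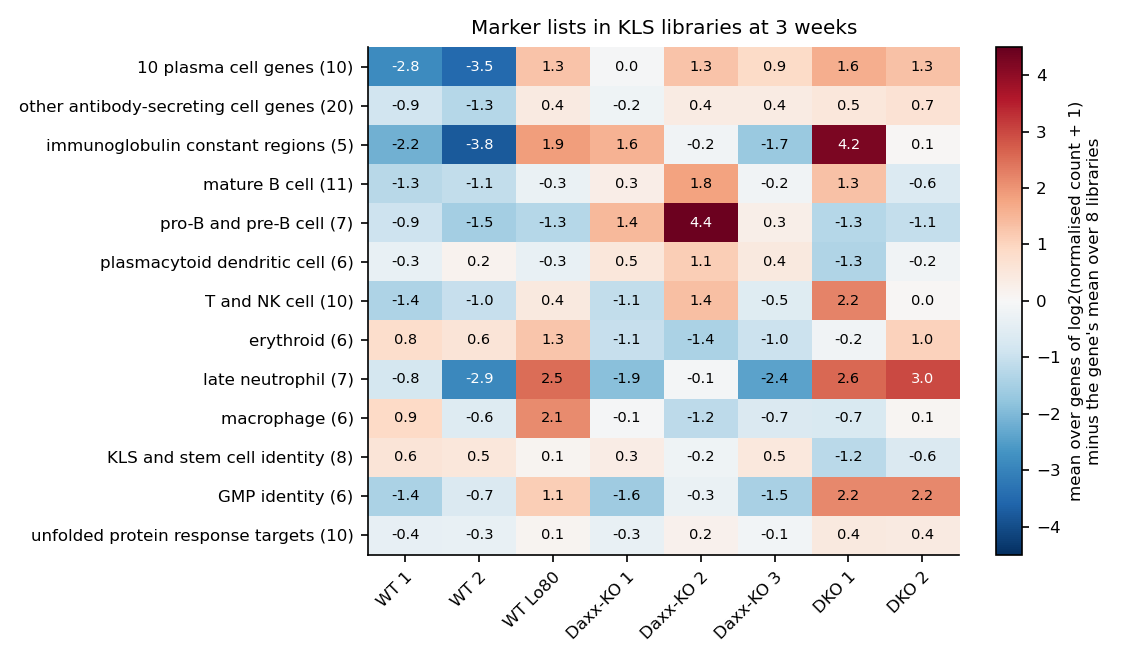
Mean over the genes of each list (number tested in brackets, without the 10 plasma cell genes in the other lists) of log2(normalised count + 1) minus the gene's mean over the 8 KLS libraries at 3 weeks. The plasma cell row is at -2.82 and -3.51 in WT libraries 1 and 2 and between -0.046 and 1.62 elsewhere. WT libraries 1 and 2 are also lowest in the mature B cell row (-1.25 and -1.12, against -0.62 to 1.82), but not in the pro-B and pre-B cell row, which peaks at 4.41 in Daxx-KO library 2.

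In Daxx-KO against WT at 3 weeks, 0 of 20 other antibody-secreting cell genes, 0 of 8 tested immunoglobulin constant genes and 0 of 11 mature B cell genes were called, and 1 of 7 pro-B and pre-B cell genes, Dntt, was higher. Against WT, where 9.24% of all genes were called higher and 8.4% lower, DKO had 7 of 20 antibody-secreting cell genes higher (Dnajb9, Edem1, Ell2, Herpud1, Manf, Ssr4 and Trp53inp1) and 1 lower (Tnfrsf13b), and 5 of 10 unfolded protein response targets higher (Calr, Dnajc3, Hspa5, Sec24d and Sec61b). The median log2 fold change was 1.03 over the former list and 0.81 over the latter, beside -0.000308 over all genes. In untimed KLS cells, where 12.5% of genes were called lower and 10.6% higher, 5 of 19 tested antibody-secreting cell genes were lower in Daxx-KO (Eaf2, Irf4, Pou2af1, Sel1l3 and Slamf7) and 5 were higher (Hsp90b1, Pdia4, Sdf2l1, Sec11c and Ssr4), the latter being general chaperones and translocation factors of the secretory pathway, as were the 5 of 10 unfolded protein response targets that were higher. All 6 immunoglobulin constant genes tested there were lower, the light chain gene Iglc2 included, with a list median of -6.40. Igkc, Iglc1 and Iglc3 were listed at 0 in every untimed and 3-week KLS library.

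Outside the Pu.1 line, which switched heavy-chain class led differed from library to library. Among reads of switched classes (Igha, the 4 Ighg genes and Ighe), Igha made up 93.4% in Daxx-KO library 2, 62.6% in DKO library 1 and 59.6% in Daxx-KO library 3, but 17.9% in DKO library 2, 15.03% in Daxx-KO library 1 and 11.5% in Lo80. Ighg2b led in Lo80 (63.7%) and in WT library 1 (93.5% of 429 reads), Ighg2c held 37.5% in DKO library 2, and Ighg3 held 26.9% in Daxx-KO library 1. At 24 weeks Ighg3 was 59.9% of the switched reads of a WT library and 4.504% of those of the other. No class was shared as the leading class by all libraries of a group of 3. In the Pu.1 line Igha was far above Ighg2b in every KLS library. It had 3895 and 2647 reads in WT and 1807 and 2051 in Pu.1-KO, against 21 and 38 and 22 and 232 for Ighg2b.

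**Figure D4:**
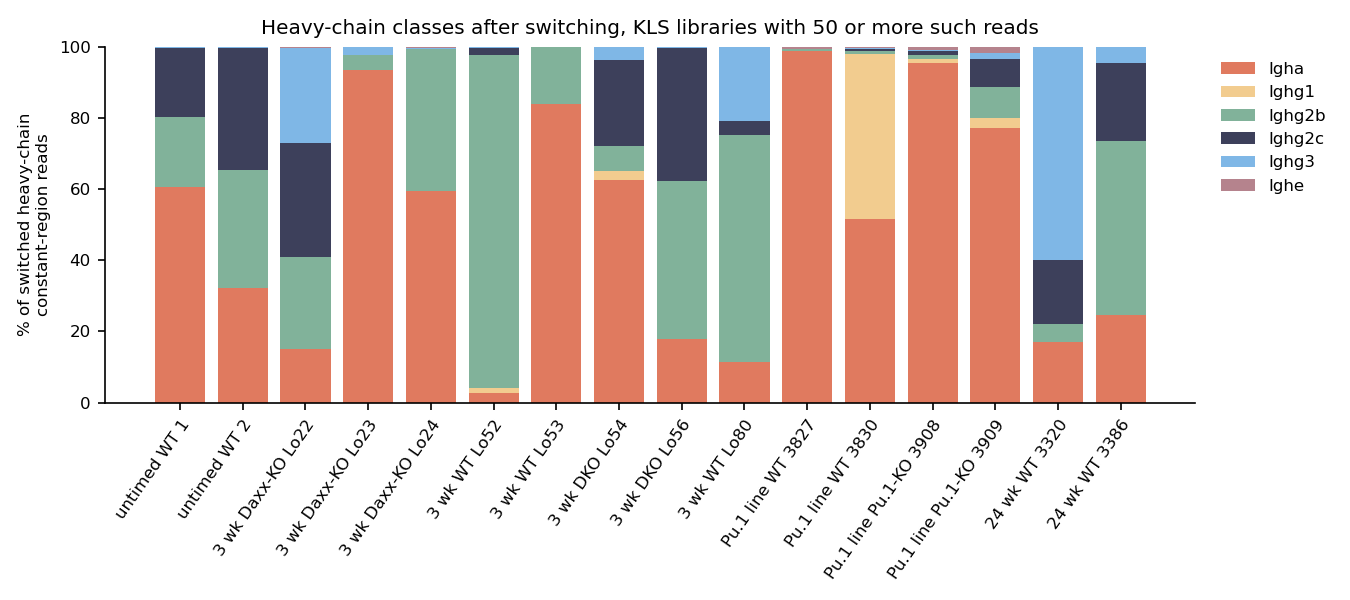
Share of each switched heavy-chain class, in % of switched constant-region reads, in the 16 KLS libraries with at least 50 such reads, 1 bar for a library. Igha is tall in Daxx-KO animal Lo23 (93.4%) and Ighg2b in WT animal Lo80 (63.7%). Classes also differ within a group, as in Daxx-KO animal Lo22 with 675 Igha and 1163 Ighg2b reads.

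Switched classes were 1.66% to 19.2% of heavy-chain reads in the 8 KLS libraries at 3 weeks, the remainder being almost all Ighm. In the Pu.1 line the share was 24.6% to 38.2%. Among KLS libraries high in the members, ratios within a library were steadier than levels for some pairs. At 3 weeks Jchain reads were 12.7 to 35.1 times the Mzb1 reads in the 6 high libraries. The ratio was 35.3 and 31.4 in the 24-week WT libraries and 14.3 to 33.4 in the Pu.1 line. In the untimed WT libraries it was 88.1 and 32.6. Jchain per Igha ran from 0.596 to 8.82 in the same 6 libraries. A ratio to Mzb1 was not formed where Mzb1 had 3 reads or fewer, as in WT library 1 at 3 weeks (418 Jchain reads and 2 Mzb1 reads). In the GMP libraries where it was formed, Jchain per Mzb1 was not steady and ran from 0 to 20.9.

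KLS and GMP libraries of the same animal were set side by side for 14 animals. Jchain, Igha, Ighg2b, Ighm and Sdc1 were higher in the KLS library in 14 of 14, Mzb1, Prdm1 and Derl3 in 13, Tnfrsf17 in 12 and Xbp1 in 6, in RPM and with no test, because the tables were normalised separately. Where the GMP library had more than 3 reads, Jchain was 4.02 to 378 times as abundant in KLS (9 animals, median 88.7), and Xbp1 0.348 to 1.65 times (14 animals, median 0.818). The animals with most Jchain in GMPs, Lo54 (108), Lo56 (19.2) and Lo80 (17.8), were also high in KLS (880, 909 and 566). Daxx-KO animal Lo23 had 909 in KLS and 0.148 in GMPs, so a high KLS library did not always go with a high GMP library.

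**Figure D5:**
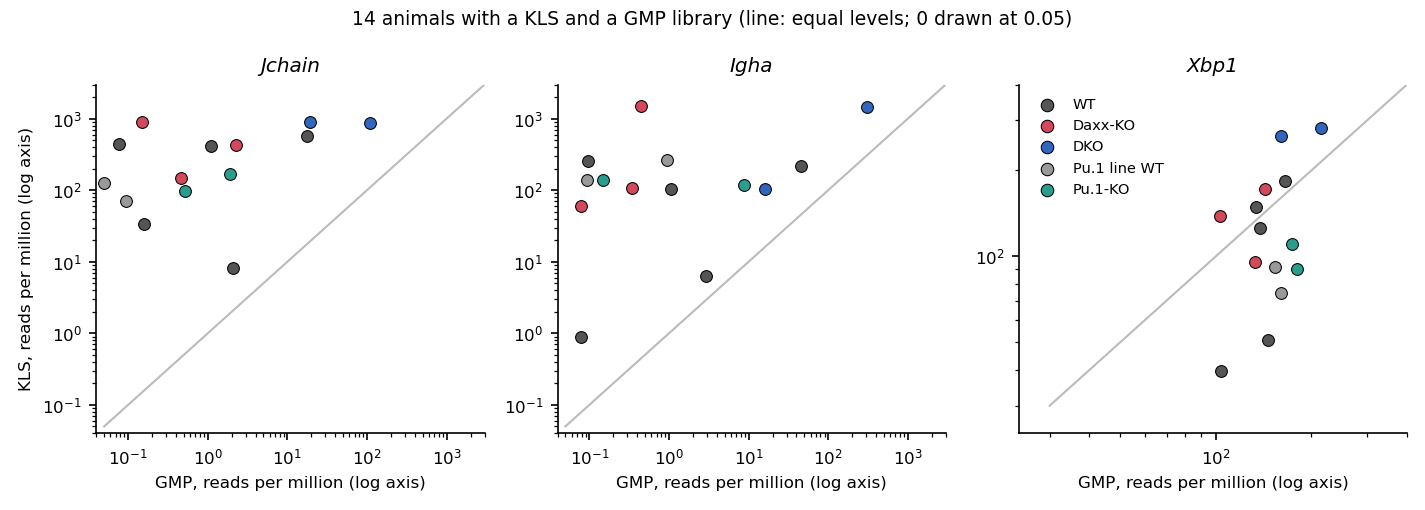
Levels of Jchain, Igha and Xbp1, in RPM, in the KLS library (vertical, log axis) against the GMP library (horizontal, log axis) of 14 animals, 1 point for an animal, coloured by group, with a line of equal levels and 0 drawn at 0.05. Jchain and Igha points lie above the line in 14 of 14 animals, Xbp1 points in 6.

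The class of the antibody genes did not always match between the libraries of an animal. In Lo54 Igha made up 62.6% of switched reads in KLS and 83.3% in GMP. In Lo80 it made up 11.5% in KLS and 98.8% in GMP, where 561 reads were Igha and 1 was Ighg2b, against 2863 and 15897 in KLS.

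In GMPs at 3 weeks 9 members passed the filter and 0 were called in any of the 3 comparisons by limma. Jchain was at 2.08, 24.7 and 236 in WT, at 5.86, 1.90 and 26.7 in Daxx-KO and at 1356 and 246 in DKO. Igha was at 1.04, 35.3 and 610.5 in WT, at 0.977, 5.70 and 3.95 in Daxx-KO and at 3880 and 208 in DKO. Only the DKO libraries and Lo80 exceeded 200 for either gene. Xbp1, at 1252 to 2194 in WT, 1329 to 1678 in Daxx-KO and 2010 to 2741 in DKO, varied little, and Ighm was at 1404 to 1607, 1822 to 2870 and 1196 and 4361.

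Mzb1 in GMPs was at 0, 2.65 and 2.18 in WT, at 11.7, 44.7 and 10.9 in Daxx-KO and at 64.9 and 14.8 in DKO, so that both mutant groups lay above WT without overlap. It reached the filter only through the mutant libraries, with 0 to 3 reads in the WT libraries, so its place among the tested genes is no support for a difference, and limma did not call it (adjusted p = 0.791 in Daxx-KO and 0.227 in DKO). DESeq2 called it in DKO (adjusted p = 0.0066), and this was the only call it made among the members in these 3 comparisons, while edgeR called 0. Of all genes, 0.0948% were called in Daxx-KO against WT, 0.292% in DKO against WT and 0.0583% in DKO against Daxx-KO. At an unadjusted p under 0.05, limma had 1, 4 and 3 members in these comparisons and 3.16%, 7.01% and 8.05% of all genes, while edgeR had 2, 4 and 4 and DESeq2 1, 4 and 1. Daxx-KO libraries lay above all WT libraries for 2 members (4.64% of genes did), DKO libraries above all WT libraries for 4 (10.1%) and above all Daxx-KO libraries for 4 (10.7%). The 3 of DKO against Daxx-KO by limma were Jchain (6.14, SE 1.59, adjusted p = 0.228), Igha (7.80, SE 1.98, adjusted p = 0.219, with a Daxx-KO mean below the filter) and Xbp1 (0.60, SE 0.26, adjusted p = 0.608). Beside Mzb1, the pro-B and pre-B cell list summed to 48.8 to 444 in WT, 1602 to 9943 in Daxx-KO and 83.8 and 3321 in DKO GMPs, and its part in the Mzb1 values was not tested.

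In the Pu.1 line all 10 members had reads in every KLS library, from 5 reads upward for Tnfrsf17. Jchain was at 2537 and 1132 in WT and at 1485 and 1893 in Pu.1-KO, Igha at 5279 and 2234 against 2113 and 1313, Ighm at 8512 and 7452 against 6627 and 4056, and Mzb1 at 75.9 and 79.3 against 95.9 and 60.2. Prdm1 was at 192.5 and 233 in WT and at 284 and 575 in Pu.1-KO, and Sdc1 at 373 and 349 against 144 and 209. Only Prdm1 had both Pu.1-KO libraries above WT, as had 33.7% of all genes, and Igha, Ighm, Sdc1 and Derl3 had both below, as had 31.9%. In RPM none of these 4 had both below, with Ighm at 424 and 462 in WT and at 434 and 367 in Pu.1-KO, and Sdc1 at 18.6 and 21.7 against 9.43 and 18.9. Igha overlapped only by a very small margin, at 262.98 and 138.55 in WT and at 138.56 and 118.71 in Pu.1-KO. Spi1 itself was at 1307 to 2920 in the KLS libraries labelled Pu.1-KO and at 2080 to 2764 in their WT. None of the 10 passed the test, in a comparison in which 0.81% of 23459 genes were called, and 0 had an unadjusted p under 0.05 by limma, 1 by edgeR and 1 by DESeq2. The median log2 fold change was -0.12 over the members and 0.116 over all genes. TMM rescaling moved the latter to 0.27 and the calls over all genes from 110 higher and 80 lower to 1388 higher and 357 lower. Without Pu.1-KO replicate a, Igha was called lower (adjusted p = 0.0413).

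In GMPs of the same line 8 members were tested and 0 were called, where 17.6% of 19337 genes were, and 0 had an unadjusted p under 0.05 by limma, 2 by edgeR and 1 by DESeq2, which called 0. For Jchain, Ighm, Sdc1 and Prdm1 both Pu.1-KO libraries lay above WT, as they did for 31.5% of all genes tested. Ighm was at 1215 and 1405 in WT and at 1860 and 1712 in Pu.1-KO (log2 fold change 0.45, SE 0.24, adjusted p = 0.159), and it was called by edgeR (adjusted p = 0.0299) and after TMM rescaling (adjusted p = 0.0296). Jchain had 0 and 1 reads in WT and 7 and 29 reads in Pu.1-KO, a ratio of 24.97 with a counting interval of 4.20 to 1013. Igha was at 12.7 and 1.31 in WT and at 1.54 and 114 in Pu.1-KO, and was called higher without Pu.1-KO replicate a (adjusted p = 0.00147), while Ighm and Prdm1 were called higher without Pu.1-KO replicate b.

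The 2 WT KLS libraries at 24 weeks were high in all members. Jchain was at 9975 and 10287, Ighm at 157443 and 271036, Igha at 6149 and 2477, Xbp1 at 3025 and 3517, Mzb1 at 282 and 327, Prdm1 at 392 and 506, and Sdc1 at 859 and 1301. In RPM their Jchain levels, 416 and 436, lay between that of Lo80 (566) and those of WT libraries 1 and 2 at 3 weeks (34.1 and 8.24), a comparison across tables and without a test. The GMP libraries of the same animals had 23 and 2 Jchain reads.

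Across the 36 libraries, with each gene centred on its mean in a table, the gene whose log2 values were most like those of Jchain among 17826 genes was Iglc2, a light chain constant gene (Pearson r = 0.879), followed by Igha (0.839). Outside the members and the immunoglobulin segments the closest were Hepacam2 (0.778), Hspbap1 (0.744), Mfsd2a (0.744), Cacna1h (0.743) and Ifi211 (0.742). Prdm1 ranked 15 (0.710), Mzb1 21 (0.702), Ighm 31 (0.677), Ighg2b 50 (0.642) and Sdc1 178 (0.554). Xbp1, Derl3 and Tnfrsf17 ranked 1136, 1621 and 2489 (0.385, 0.337 and 0.272), so that 3 of the 10 plasma cell genes did not follow Jchain closely. Each table held a single cell type, so differences in level between KLS cells and GMPs do not enter these values. The libraries share animals and tables, and these values are a description only.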

How the data were processed

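RNA was sequenced from sorted KLS cells and GMPs. Per the labels, the authors aligned reads to mm10 and used CASAVA 1.8.4, cutadapt 1.13, STAR 2.5.3 and DESeq2 1.16.1 (submitters' processing notes). The counter, its strand setting and the annotation are not given in the labels, and the kit is given differently by labels and methods. The deposited signal values are gene counts divided by 1 size factor per library. Whole reads were recovered by dividing by that step (100% of values whole within 0.01). Of 111 per-sample columns, 75 were not used: repeat-element tables, and gene columns whose names matched no single sample or group (long-term stem cells, MPP3, MPP4 and mutant libraries at 24 weeks), so 10 of 20 planned comparisons were run.

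The members, marker lists and tests were chosen with earlier results of these data known. Only genes averaging at least 10 across a table's libraries entered the fit with limma 3.58.1 (R 4.3.3, trend, all groups of the table together) on log2(value + 1), with Benjamini-Hochberg adjustment over all genes tested and a threshold of 0.05, two-sided. Fold changes of low genes are understated on this scale. All 10 members were described. Alternatives were a pseudocount of 5, no filter, TMM rescaling, edgeR 4.0.16 quasi-likelihood and DESeq2 1.42.0 on recovered reads, leaving out each library, and the replicate number as a block. Fits were tested on simulated data. Ratios with 3 or fewer reads in a group carry exact conditional binomial 95% intervals, which like the floor of 3 reads cover counting error only. Gene models were GENCODE M21 and promoters RefSeq, both GRCm38. The genes most like Jchain were ranked over genes in all tables with a mean of at least 10.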

Additional observations from a re-analysis of the deposited data

Results flagged for a closer look

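Members whose libraries all moved one way in one cell type or table and all the opposite way in another were looked up under the same contrast. In each case the difference between the effects was not tested, and the tables were normalised separately.

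Ighm had a mean normalised count of 694 in untimed Daxx-KO KLS libraries, below WT (13055), but of 1078 in untimed Daxx-KO GMPs, above WT (673), and of 2208 in Daxx-KO GMPs at 3 weeks, above WT (1481). Mzb1 was at 0.698 in untimed Daxx-KO KLS libraries, below WT (38.7), and at 22.4 in Daxx-KO GMPs at 3 weeks, above WT (1.61). In the Pu.1 line, Ighm was at 5341 in Pu.1-KO KLS libraries, below WT (7982), and at 1786 in Pu.1-KO GMPs, above WT (1310). Sdc1 was at 177 in the former, below WT (361), and at 65.2 in the latter, above WT (37.2). In RPM the Pu.1-KO and WT KLS libraries overlapped for both genes, with Ighm at 434 and 367 against 424 and 462 and Sdc1 at 9.43 and 18.9 against 18.6 and 21.7, so the lower values in KLS cells rest on the deposited scaling.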

How the results depend on the processing

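The number of members called was unstable in the 3-week KLS libraries. For DKO against WT it was 3 in the fit as reported, 1 with no filter on low values, 0 by edgeR and 1 by DESeq2, and it ran from 0 to 10 when single libraries were left out. For Daxx-KO against WT it ran from 0 to 8, the 8 arising without the WT library of Lo80. Leaving out single libraries gave 3 to 8 calls in untimed KLS cells (4 without Daxx-KO replicate 1), 1 to 2 in untimed GMPs, 0 to 1 in Pu.1-KO KLS cells and 0 to 2 in Pu.1-KO GMPs, where TMM rescaling gave 1 and edgeR 1. DESeq2 gave 1 call in DKO GMPs against WT. Where an arm was left with 1 library, that library is assumed to vary like the others. In untimed KLS cells the calls over all genes fell as well when a Daxx-KO library was left out. Over all genes, the calls moved by more than 1.5 times in untimed KLS cells (3118, and 1751 with no filter), in 3-week KLS cells for Daxx-KO against WT (39, and 342 by DESeq2), in Pu.1-KO KLS cells (190, and 1745 after TMM rescaling, 1920 by edgeR and 1357 by DESeq2) and in 3-week GMPs for Daxx-KO against WT (13, and 80 by DESeq2), DKO against WT (40, and 263 by DESeq2) and DKO against Daxx-KO (8, and 17 with a pseudocount of 5, 13 with no filter, 18 after TMM rescaling, 20 by edgeR and 280 by DESeq2).

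Replicate numbers did not pair the libraries, since same-numbered libraries correlated at -0.0095 in untimed KLS, at -0.111 in untimed GMPs and at -0.214 to 0.0689 in 3-week KLS cells. With the number as a replicate block, which leaves out Lo80, 3 members were called in Daxx-KO and 10 in DKO against WT, and 1 in DKO against Daxx-KO, while Tnfrsf17 turned to 0.43 in the last. In Daxx-KO against WT, 8 members and 137 genes were called without Lo80 and no block, and 3 members and 81 genes with the block (39 genes with Lo80 and no block). Daxx-KO replicate 3 has no numbered partner and so adds nothing to the blocked fold changes. For DKO against Daxx-KO 2340 genes were called with no block, 1457 without Daxx-KO replicate 3 and 1283 with the block. In the untimed tables it changed no count of members called. No paired analysis was possible because the columns carry no replicate number in the 3-week GMP and Pu.1 line tables.

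Directions that turned belonged to members that were not called in the fit as reported. Among them, Ighg2b in 3-week DKO against WT KLS cells was called higher by limma without Lo80 (5.09, adjusted p = 0.0094). Ighg2b in 3-week KLS cells was at -2.33 by edgeR and -2.35 by DESeq2 in Daxx-KO against WT, and at -0.88 by both in DKO against WT. In Pu.1-KO KLS cells Jchain was at 0.14 after TMM rescaling and 0.075 by edgeR, Mzb1 at 0.12, 0.14 and, by DESeq2, 0.037, and Tnfrsf17 at 0.039 with a pseudocount of 5, 0.11 after TMM rescaling, 0.53 by edgeR and 0.41 by DESeq2. In Pu.1-KO GMPs Ighg2b was at -0.23 by edgeR and -0.31 by DESeq2, Xbp1 at 0.032 after TMM rescaling and 0.036 by edgeR, and Derl3 at 0.055 by edgeR. The cause was not tested.

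Leaving out single libraries also turned the direction of some log2 fold changes, to the following values. In 3-week KLS cells Ighg2b turned to -1.31 in Daxx-KO against WT, and in DKO against Daxx-KO Igha turned to -0.998, Sdc1 to between -0.145 and -0.136 and Tnfrsf17 to between 0.036 and 0.43. In Pu.1-KO KLS cells Jchain turned to between 0.159 and 0.57, Ighg2b to -0.22, Xbp1 to between 0.116 and 0.18, Mzb1 to between 0.0016 and 0.30 and Tnfrsf17 to between 0.385 and 1.14. In 3-week GMPs Sdc1 turned to 0.197 in Daxx-KO against WT and to between 0.044 and 0.27 in DKO against WT, where Ighm turned to -0.31. In DKO against Daxx-KO GMPs Ighm turned to between -0.85 and -0.0019 (-0.044 without Daxx-KO replicate a), Mzb1 to -0.27 and Sdc1 to -0.29. In Pu.1-KO GMPs Ighg2b turned to -1.31, Xbp1 to between 0.0044 and 0.12 and Derl3 to 0.33. The cause was not tested.

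Low read numbers limit the GMP values of Jchain, Igha, Ighg2b and Mzb1, and groups of 2 or 3 libraries limit all tests.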
